A study of Mus musculus with 8 samples.

Results

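The genes described here code for the proteasome, its regulators and the chaperones that assemble it. They were taken by symbol, as every gene named Psma, Psmb, Psmc, Psmd, Psme, Psmf or Psmg followed by a number, without pseudogenes, with the counts of a gene's transcripts summed. This gave 51 of the 19558 genes in the table: 19 of the core particle (Psma and Psmb), 20 of the regulatory cap and its assembly (Psmc and Psmd), 10 activators, inhibitors and core chaperones (Psme, Psmf and Psmg), and 2 genes, Psmc3ip and Psme3ip1, that carry such a name only because their product binds a member. Expression was measured by stranded poly(A) RNA-seq of hippocampus in 4 WT mice of strain C57BL/6 KP that received KU55933, a blocker of the DNA damage kinase ATM, and in 4 WT mice of the same strain that received vehicle, 4% DMSO in saline. All mice were at P40 and were anesthetized, and both solutions were given through the nose, with a dose of 7.5 mg/kg stated under both labels. The interval between dosing and sampling is not given in the sources used here, and no reading of ATM activity was used. Each library was counted as 1 mouse, as the labels imply.

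The proteasome degrades proteins that carry chains of ubiquitin. Its barrel-shaped core is built of outer rings of alpha subunits, which form the gate, and inner rings of beta subunits, some of which cut the protein. A cap with a ring of ATPases recognises, unfolds and feeds in the substrate, and inflammatory signals replace the standard catalytic subunits with those of the immunoproteasome, which favours peptides for antigen presentation. In neurons the complex turns over synaptic proteins and takes part in plasticity.

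The KU55933 libraries held 34190440 to 37499003 estimated counts and the vehicle libraries 40586998 to 46630341. The 10 hippocampal neuron markers were all detected and summed to 1198 to 1471 CPM, counts scaled to library size, in KU55933 libraries and 1366 to 1581 CPM in vehicle libraries; 1 of the 10 was higher and 3 were lower by the test used below. Choroid plexus markers, all 10 of them detected, summed to 1827, 1849, 263 and 225 CPM in KU55933 libraries 1 to 4, against 323, 188, 240 and 167 CPM in vehicle libraries 1 to 4, so that KU55933 1 and 2 stood apart; 1 of the 10 passed, being higher, and their median log2 change was 1.94. Of 9 tested markers of other brain regions, 3 were higher and 1 was lower, with a summed level of 110 to 150 CPM in KU55933 libraries and 118 to 125 CPM in vehicle libraries. Of all genes tested, 6.92% were higher and 14.6% lower. The dependence of counts on the GC content of a gene also separated the groups: its slope was -0.28, -0.34, -0.11 and -0.12 log2 units per 10 points of GC in KU55933 libraries 1 to 4, and 0.13, 0.19, 0.27 and 0.26 in vehicle libraries 1 to 4. The treatment and this property of the libraries cannot be told apart by the design, so results are given as measured and, where a gene's change is given, also with an offset that removes, within each library, the trend of counts on GC content and gene length. With this offset none of the markers above passed, where 2.00% of all genes did. In bulk tissue, fewer cells of a type and less RNA per cell cannot be told apart.

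Of the 51 genes, 50 passed the filter on low counts. With KU55933, 6 of them were higher, 5 were lower and 39 did not pass the test (edgeR's quasi-likelihood test, Benjamini-Hochberg adjusted p under 0.05 over all genes). Across all 15481 genes tested, 21.6% passed, 6.92% higher and 14.6% lower, so the share of proteasome genes past the test, 22.0%, was close to the share of all genes. Their median log2 change was 0.01, the same as that of all genes tested, and single genes ranged between -0.76 and 0.31. The 6 higher genes were the alpha ring genes Psma1, Psma2, Psma4 and Psma6, the ATPase gene Psmc6 and the chaperone gene Psmd5. The 5 lower genes were the catalytic genes Psmb5 and Psmb10, the cap gene Psmd3, the activator gene Psme1 and the chaperone gene Psmg4. With the GC and length offset none of the 50 passed, where 2.00% of all genes did. An unadjusted p under 0.05 was then reached by 7 of the 50 (Psma5, Psma6, Psmb7 and Psmc2 with positive changes, Psmd9, Psmf1 and Psmg4 with negative ones), against 15.8% of all genes.

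**Figure D1:**
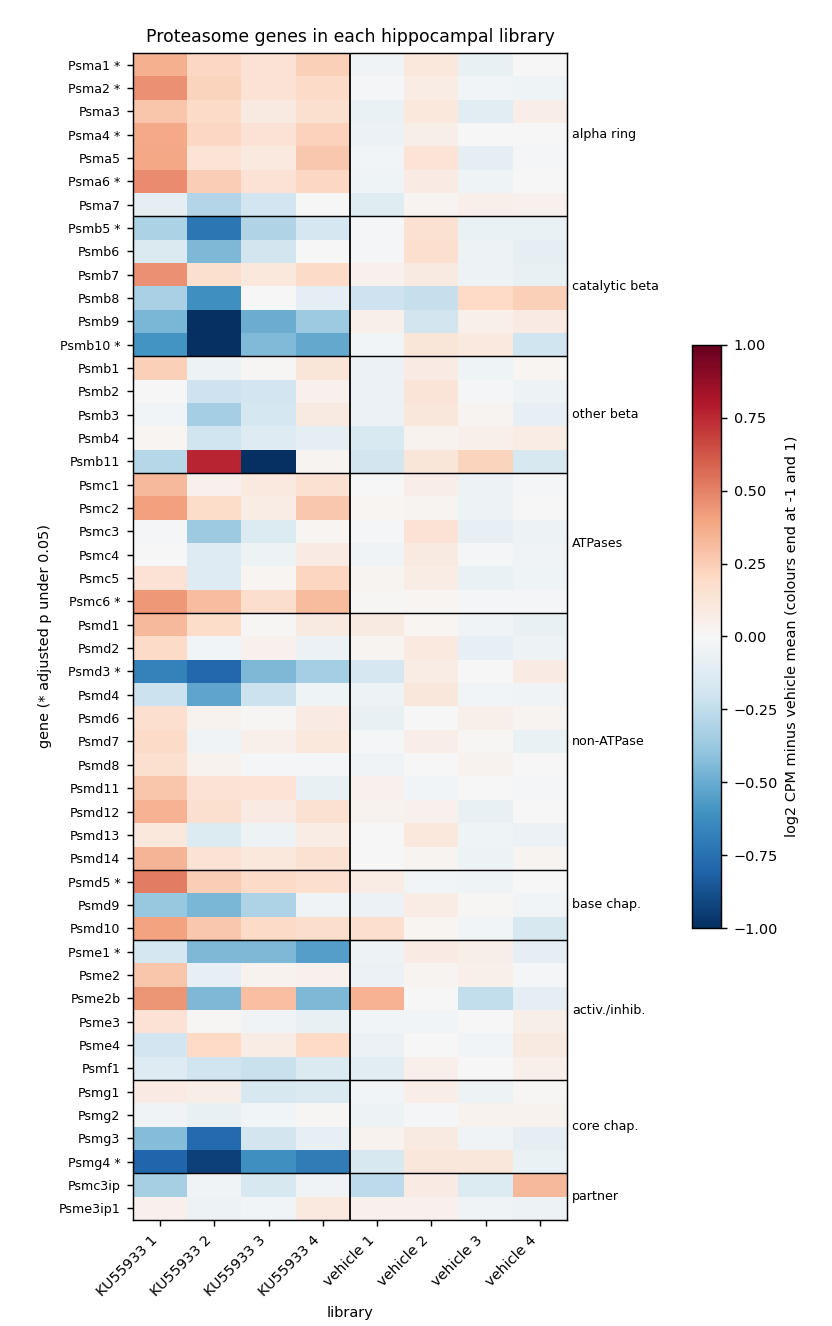
Log2 CPM of the 50 tested genes in each library (columns, KU55933 left of vehicle) minus the mean of the vehicle libraries, in log2 units with colours saturating at 1, grouped by role (rows, asterisk for adjusted p under 0.05). KU55933 libraries run high in most alpha ring rows and low for Psmb5, Psmb10, Psmd3, Psme1 and Psmg4, and the rows of very low genes such as Psmb11 scatter in both groups.

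The change of a proteasome gene followed its GC content. Over the 50 genes, the Spearman correlation between GC content and log2 change was -0.87, within the 18 tested core genes it was -0.90 and within the 20 cap genes -0.93, while over 15470 genes it was -0.71. With the offset these values were -0.31, -0.42, -0.19 and -0.02; they are descriptions across genes measured in the same 8 libraries. Among the 11 members in the lowest quartile of GC content (below 45.5%), 5 were higher and none was lower. Their median log2 change was 0.24 beside 0.21 for all 3868 genes of that quartile, of which 20.6% were higher and 0.259% lower. Among the 8 members of the highest quartile (from 54.9%), none was higher and 4 were lower, with a median of -0.36 beside -0.43 for all genes there, of which 50.6% were lower. The 12 members of the second quartile had a median of 0.14 and the 19 of the third a median of -0.09, beside 0.11 and -0.06 for all genes. In each quartile the members' median was close to that of all genes.

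**Figure D2:**
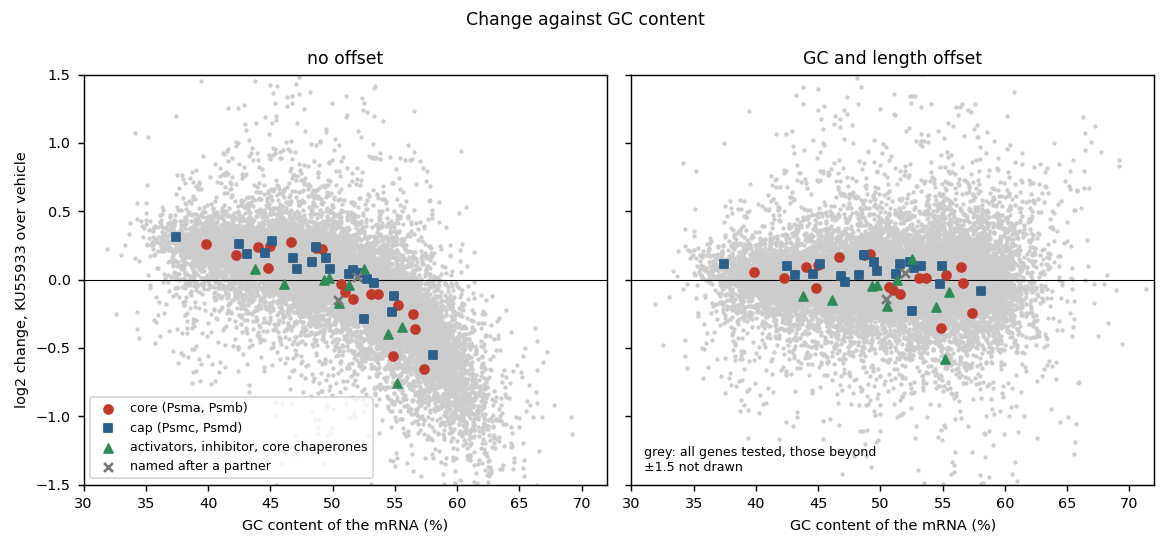
GC content of each gene's transcripts (x axis, percent) against the log2 change of KU55933 over vehicle as measured and with the GC and length offset (y axes), for the 50 tested proteasome genes over all genes tested. As measured, the genes fall along the downward slope of all genes, with Psmc6 at the upper left and Psmd3, Psmb10 and Psmg4 at the lower right; with the offset most lie near 0.

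The genes at the ends of that range show how different the transcripts are. Among the genes past the test, Psmc6 had the lowest GC content, 37.4%, and Psmd3 the highest, 58.1%. The first 120 bases of the coding sequence of their most abundant transcripts are printed below with G and C in capitals (GENCODE transcripts on GRCm38, both on the plus strand, from the start codon; coding regions chr14:45329848-45348698 for Psmc6 and chr11:98682730-98695597 for Psmd3, introns removed). G and C make up 47.5% of the Psmc6 stretch and 70.0% of the Psmd3 stretch.
Psmc6: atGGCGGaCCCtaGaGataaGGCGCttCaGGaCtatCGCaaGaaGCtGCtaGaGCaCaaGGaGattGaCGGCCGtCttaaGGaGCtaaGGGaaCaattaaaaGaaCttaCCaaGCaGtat
Psmd3: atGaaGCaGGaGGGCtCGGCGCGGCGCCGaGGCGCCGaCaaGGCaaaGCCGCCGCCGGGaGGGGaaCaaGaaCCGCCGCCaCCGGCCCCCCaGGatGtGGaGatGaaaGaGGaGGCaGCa

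Per transcript length, expressed in TPM, the standard beta ring genes Psmb1 to Psmb7 formed the most abundant group, with a median over genes that averaged 179 ± 23.0 TPM in KU55933 libraries and 184 ± 9.09 TPM in vehicle libraries (SD, n = 4 each, as for all values given in this form). ATPase genes followed at 166 ± 7.01 TPM with KU55933 and 155 ± 4.17 TPM with vehicle, and the 7 alpha ring genes other than Psma8 at 155 ± 2.75 TPM with KU55933 and 135 ± 3.80 TPM with vehicle. The order of the beta ring and the ATPases was not kept in every library, since the beta ring median reached down to 148 TPM in KU55933 2. The 11 non-ATPase cap genes had 112 ± 3.17 TPM with KU55933 and 108 ± 5.13 TPM with vehicle. Assembly chaperones were less abundant than these groups: those of the base had 23.6 ± 1.23 TPM with KU55933 and 26.1 ± 1.43 TPM with vehicle, and those of the core 19.0 ± 1.03 TPM with KU55933 and 20.9 ± 0.830 TPM with vehicle. The single most abundant genes over all 8 libraries were Psmb6 at 212 TPM, Psmb4 at 211 TPM, Psmc5 at 205 TPM, Psmb5 at 203 TPM and Psmb7 at 202 TPM, which lay within the spread of each other.

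**Figure D3:**
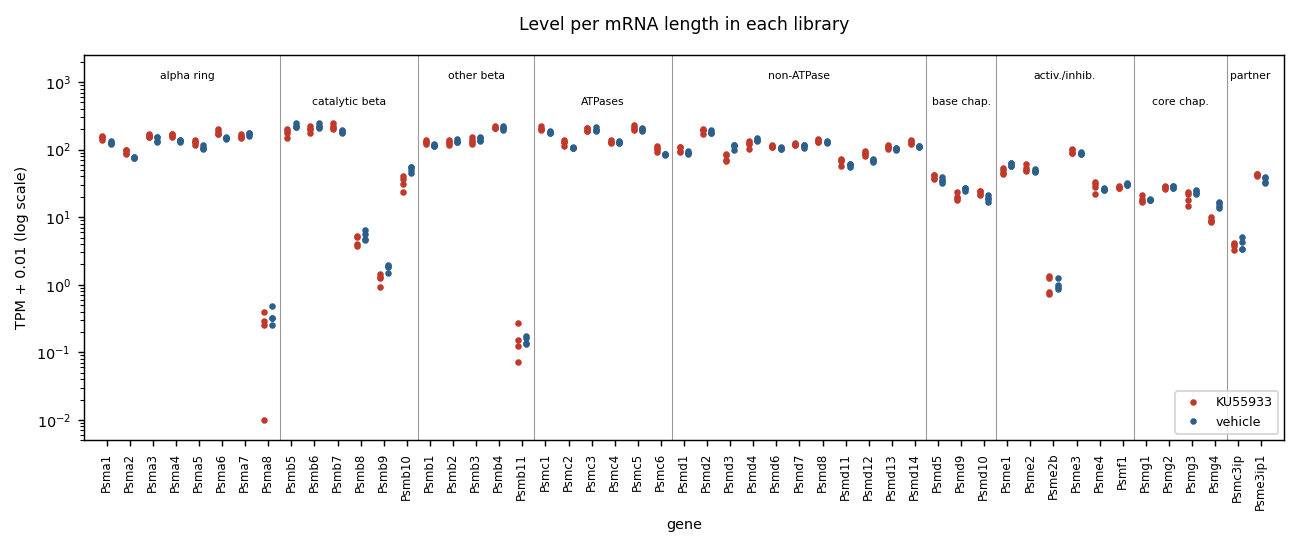
TPM of each proteasome gene in each library (log axis, 0.01 added, KU55933 points left of vehicle points), ordered by role. Most core and cap subunits lie near 100 TPM, the immunoproteasome genes Psmb8, Psmb9 and Psmb10 and the chaperones lie below them, and Psma8 and Psmb11 lie lowest; the point at 0.01 is Psma8 in KU55933 3, which had no count.

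The alpha ring, whose subunits gate the core, held 4 of the 6 higher genes. Of its 7 tested members, 4 were higher and none was lower, and the median log2 change was 0.24. By comparison, 6.92% of all genes tested were higher and 14.6% lower. The ring's median GC content lay in the lowest quartile of GC content. In that quartile 20.6% of all genes were higher and 0.259% lower, with a median log2 change of 0.21. The part of GC content in the ring's count was not tested. Psma4 reached 83.8, 74.6, 71.4 and 75.7 CPM in the KU55933 libraries, against 61.8, 67.0, 64.4 and 64.7 CPM in the vehicle libraries. Every KU55933 library was above every vehicle library, with KU55933 1 the highest (log2 change 0.24 ± 0.07 SE, adjusted p = 0.0332). Psma6 had 89.7, 76.6, 71.7 and 74.7 CPM with KU55933, against 62.8, 68.4, 62.9 and 64.7 CPM with vehicle. Its groups were also apart and KU55933 1 again stood highest (log2 change 0.27 ± 0.08 SE, adjusted p = 0.0371). Psma1 averaged 73.1 ± 4.59 CPM with KU55933 and 62.1 ± 3.32 CPM with vehicle (log2 change 0.24 ± 0.07 SE, adjusted p = 0.0411), and Psma2 97.5 ± 9.99 CPM with KU55933 and 81.6 ± 2.89 CPM with vehicle (0.26 ± 0.08 SE, adjusted p = 0.0440).

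Psma3 and Psma5 had positive changes that did not pass, 0.18 (adjusted p = 0.102) and 0.23 (adjusted p = 0.0734), and Psma7 a negative one, -0.14 (adjusted p = 0.217); with the offset these were 0.01, 0.19 and -0.11. The median of the 7 genes against the vehicle mean was 0.38 log2 units in KU55933 1, against 0.20, 0.14 and 0.21 in KU55933 2 to 4. With the offset, the log2 changes of Psma1, Psma2, Psma4 and Psma6 were 0.09, 0.06, 0.11 and 0.16 and none passed, with the ring's median at 0.09. These 4 calls were also lost in most fits without 1 library: Psma1 passed only without KU55933 3 (adjusted p between 0.0496 and 0.126 over the 8 fits), Psma2 and Psma6 only without KU55933 3 or KU55933 4 (0.0393 to 0.117 and 0.0341 to 0.107), and Psma4 without KU55933 3, KU55933 4 or vehicle 1 (0.0393 to 0.0916). Without KU55933 1 and 2, which had the high choroid plexus markers, their log2 changes were between 0.17 and 0.19 and none passed, where 0.665% of all genes were higher and 6.24% lower, 6.91% in all. The remaining member, Psma8, a form known from the testis, had 4, 9, 0 and 7 counts with KU55933 and 10, 11, 7 and 9 counts with vehicle and was not tested.

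The 3 standard catalytic subunits did not move together. Psmb5, which carries the chymotrypsin-like activity, had 68.3, 51.4, 69.2 and 75.8 CPM in KU55933 libraries, against 83.9, 94.6, 81.1 and 81.4 CPM in vehicle libraries. All KU55933 libraries lay below all vehicle libraries, KU55933 2 being the lowest and vehicle 2 the highest. Psmb5 thus fell (log2 change -0.37 ± 0.11 SE, adjusted p = 0.0406), but it passed in only 1 of the 8 fits without a library, that without KU55933 4 (adjusted p = 0.0236), and reached 0.116 at most in the others. With the offset its log2 change was -0.02 (adjusted p = 0.920).

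Psmb6, which carries the caspase-like activity, had 67.0, 54.2, 65.0 and 73.8 CPM with KU55933, against 73.0, 82.9, 71.2 and 69.4 CPM with vehicle. The groups overlapped through KU55933 4, and the log2 change of -0.19 ± 0.10 SE did not pass (adjusted p = 0.184) and was 0.04 with the offset. Psmb7, which carries the trypsin-like activity, had 123, 99.8, 95.9 and 102 CPM with KU55933, against 92.0, 94.8, 86.0 and 84.5 CPM with vehicle. Here all KU55933 libraries lay above the vehicle libraries, most of all KU55933 1, yet the log2 change of 0.23 ± 0.09 SE did not pass (adjusted p = 0.0772); with the offset it was 0.18 ± 0.08 SE (adjusted p = 0.290). Psmb7 has the lowest GC content of the 3, 48.7%, against 56.6% for Psmb5 and 55.3% for Psmb6.

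The immunoproteasome subunits were less abundant per length than the standard ones, and unequal. Psmb10 had 32.8 ± 7.41 TPM in KU55933 libraries and 51.4 ± 4.85 TPM in vehicle libraries, Psmb8 had 4.50 ± 0.808 TPM in KU55933 libraries and 5.33 ± 0.836 TPM in vehicle libraries, and Psmb9 had 1.21 ± 0.206 TPM in KU55933 libraries and 1.79 ± 0.194 TPM in vehicle libraries. Psmb10, which replaces Psmb7, had 12.1, 8.17, 13.5 and 12.9 CPM with KU55933, against 18.03, 19.98, 19.64 and 15.99 CPM with vehicle. Its groups did not overlap and it fell (log2 change -0.66 ± 0.15 SE, adjusted p = 0.0122); the call held in all 8 fits without 1 library (adjusted p 0.0135 to 0.0420). Without KU55933 1 and 2 the log2 change was -0.48 (adjusted p = 0.0501), and with the offset it was -0.25 ± 0.12 SE (adjusted p = 0.339).

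Psmb9, which replaces Psmb6, had 0.819, 0.564, 0.798 and 0.874 CPM with KU55933, against 1.16, 0.989, 1.17 and 1.19 CPM with vehicle, resting on 20 to 31 counts per KU55933 library and 40 to 53 per vehicle library. Its groups were apart as well, but the log2 change of -0.56 ± 0.22 SE did not pass (adjusted p = 0.0836) and was -0.35 with the offset. Psmb8, which replaces Psmb5, had 1.90, 1.55, 2.37 and 2.23 CPM with KU55933, against 2.06, 2.03, 2.72 and 2.80 CPM with vehicle. Its groups overlapped, and its log2 change was -0.25 ± 0.19 SE (adjusted p = 0.359), or 0.09 with the offset.

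Set against its standard partner, Psmb10 made up 11.02%, 9.50%, 16.6% and 14.9% of the summed TPM of Psmb7 and Psmb10 in KU55933 libraries, against 20.6%, 22.5%, 23.3% and 20.8% in vehicle libraries. The groups did not overlap in this share, which joins a gene of 57.3% GC with one of 48.7%. Only 58.3% of Psmb10 counts were assigned to its coding transcript, against 99.8% for Psmb7. The Psmb10 TPM and this share sum all its transcripts, among them a retained-intron one of 554 bases with 25.4% of its counts. Psmb8 made up 2.45 ± 0.233% of its pair with Psmb5 in KU55933 libraries and 2.31 ± 0.466% in vehicle libraries, and Psmb9 0.602 ± 0.0829% of its pair with Psmb6 in KU55933 libraries and 0.795 ± 0.130% in vehicle libraries, both with overlapping groups. Microglia and endothelium, which express immunoproteasome genes, had summed marker levels of 320 to 386 and 265 to 306 CPM with KU55933, against 356 to 403 and 271 to 289 CPM with vehicle. Of the 10 microglial markers 3 were lower and none was higher, and of the 8 endothelial ones 1 was higher and 1 lower. Among all genes tested, 14.6% were lower and 6.92% higher. The lower microglial markers Trem2, C1qa and C1qc had GC contents of 55.9% to 59.5%, and from 54.9% upward 50.6% of all genes were lower. With the offset no marker in either list passed. Median log2 changes were then 0.0002 for microglia and -0.09 for endothelium, against -0.22 and 0.06 as measured. The part of these cells in the immunoproteasome values was not tested.

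None of the 5 other beta ring genes passed. Psmb4, a structural subunit, had 91.7, 79.0, 82.6 and 84.5 CPM with KU55933, against 81.4, 92.6, 93.7 and 95.3 CPM with vehicle (log2 change -0.10 ± 0.08 SE, adjusted p = 0.349). Psmb3, another structural subunit, had 45.5, 36.7, 41.1 and 49.6 CPM with KU55933, against 44.6, 50.3, 47.4 and 43.9 CPM with vehicle (-0.11 ± 0.10 SE, adjusted p = 0.443). Both overlapped, and both log2 changes were 0.01 with the offset. Psmb1 and Psmb2 had log2 changes of 0.08 and -0.09 (adjusted p = 0.465 and 0.458), or -0.06 and -0.08 with the offset, so that the sign of Psmb1 turned. Psmb11, a form known from the thymus, was near the detection limit with 4 to 15 counts per KU55933 library and 9 to 12 per vehicle library (log2 change -0.03, or -0.05 with the offset).

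Over the whole core, 4 of 18 tested genes were higher and 2 were lower, with a median log2 change of -0.06, or 0.01 with the offset. Over the cap, 2 of 20 were higher and 1 was lower, with a median of 0.08, or 0.07 with the offset, and with the offset 16 of its 20 genes had a positive change, beside 11 of 18 in the core and 8058 of 15470 among all genes. Among all genes tested, 6.92% were higher and 14.6% lower as measured. The difference between core and cap was not tested.

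**Figure D4:**
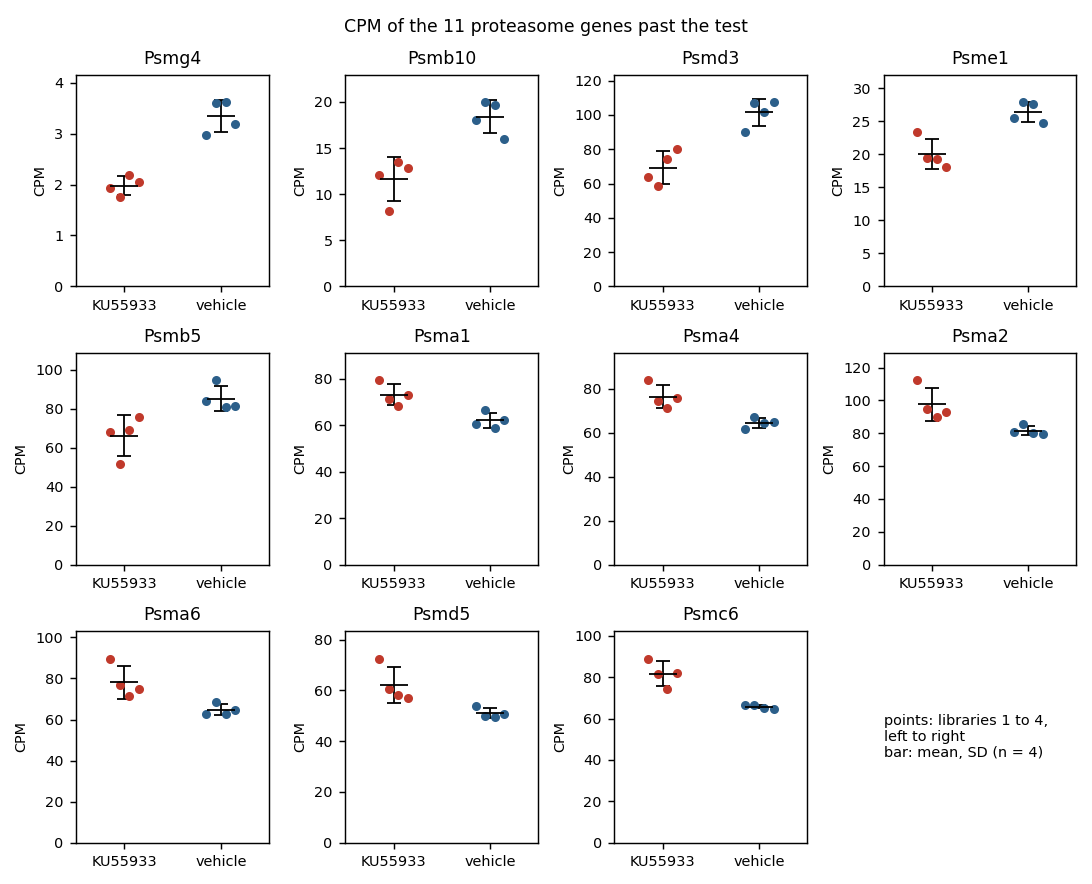
CPM in each library of the 11 proteasome genes past the test, KU55933 left and vehicle right in each panel, with the mean and SD (n = 4 each); each panel has its own axis from 0. In all 11 genes the groups do not overlap, and in Psma1, Psma2, Psma4, Psma6, Psmc6 and Psmd5 the first KU55933 library is the highest.

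Among the 6 ATPase genes, which form the ring that unfolds substrates, Psmc6 alone passed. It had 88.9, 81.5, 74.1 and 82.1 CPM with KU55933, against 66.4, 66.6, 65.3 and 64.8 CPM with vehicle. The vehicle libraries were within 2 CPM of each other and all KU55933 libraries were higher, giving a log2 change of 0.31 ± 0.07 SE (adjusted p = 0.0120). Psmc6 passed in all 8 fits without 1 library (adjusted p 0.0109 to 0.0445), but not without KU55933 1 and 2 together (log2 change 0.25, adjusted p = 0.0582) or with the offset (0.12 ± 0.06 SE, adjusted p = 0.414).

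Psmc2 had 106, 90.3, 83.6 and 96.1 CPM with KU55933, against 80.8, 81.1, 76.7 and 79.7 CPM with vehicle. Its groups did not overlap either, with KU55933 1 the highest, but its log2 change of 0.24 ± 0.08 SE was just short of the threshold (adjusted p = 0.0531), which it passed without KU55933 3 (adjusted p = 0.0360). Psmc1, Psmc3, Psmc4 and Psmc5 had log2 changes of 0.16, -0.12, -0.03 and 0.07 and adjusted p-values of 0.154 to 0.815. With the offset all 6 ATPase genes had positive log2 changes in a narrow band, 0.10 to 0.18, and none passed, so that Psmc3 and Psmc4 turned sign.

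Of the 11 non-ATPase genes, some of which recognise ubiquitin or remove it from the substrate, Psmd3 passed and 10 did not. Psmd3, a subunit of the lid, had 63.6, 58.8, 74.3 and 80.1 CPM in KU55933 libraries, against 90.4, 107, 102 and 107 CPM in vehicle libraries. The groups were apart, and KU55933 1 and 2 were the lowest libraries. Psmd3 fell (log2 change -0.55 ± 0.10 SE, adjusted p = 0.00482). It passed in all 8 fits without 1 library and without KU55933 1 and 2 together (log2 change -0.39, adjusted p = 0.0367). With the offset its log2 change was -0.08 ± 0.06 SE (adjusted p = 0.541).

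Psmd14, the deubiquitinase of the lid, had 87.5, 76.3, 74.2 and 76.7 CPM with KU55933, against 69.0, 70.2, 66.4 and 70.5 CPM with vehicle. The groups did not overlap, with KU55933 1 well above the rest, and the log2 change of 0.19 ± 0.07 SE did not pass (adjusted p = 0.0803); with the offset it was 0.03. The ubiquitin receptor Psmd4 had a log2 change of -0.24 (adjusted p = 0.0978) that of the 8 fits without 1 library passed in that without KU55933 4 (adjusted p = 0.0392), and was -0.03 with the offset. The lid gene Psmd12 had groups that did not overlap (log2 change 0.19, adjusted p = 0.0884, or 0.04 with the offset), and the scaffold genes Psmd1 and Psmd2 had log2 changes of 0.16 and 0.04 (adjusted p = 0.178 and 0.755), or 0.02 and 0.04 with the offset. The lid genes Psmd6, Psmd7, Psmd8, Psmd11 and Psmd13 had log2 changes of 0.00 to 0.13, and with the offset -0.02, the sign of Psmd6 having turned, 0.06, 0.13, 0.03 and 0.09.

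The chaperones that assemble the base of the cap went in both directions. Psmd5 had 72.5, 60.5, 58.2 and 57.2 CPM with KU55933, against 53.7, 49.98, 49.3 and 50.8 CPM with vehicle. All KU55933 libraries were above the vehicle libraries, KU55933 1 by the most (log2 change 0.29 ± 0.09 SE, adjusted p = 0.0378). It passed without KU55933 3, KU55933 4 or vehicle 1 but in none of the other 5 fits without 1 library (adjusted p 0.0251 to 0.109), and its change was 0.11 with the offset (adjusted p = 0.469). Psmd10 had a log2 change of 0.26 (adjusted p = 0.0893), which of the 8 fits without 1 library passed in that without vehicle 1 (adjusted p = 0.0412) and was 0.10 with the offset. Psmd9 had one of -0.29 (adjusted p = 0.0606), which of the 8 fits without 1 library passed in that without KU55933 4 (adjusted p = 0.0134), passed with DESeq2 (adjusted p = 0.0349), and was -0.23 with the offset.

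The chaperones that assemble the core act as the pairs Psmg1 with Psmg2 and Psmg3 with Psmg4, and only Psmg4 passed. Psmg4 had 1.93, 1.75, 2.18 and 2.06 CPM with KU55933, against 2.98, 3.61, 3.62 and 3.20 CPM with vehicle, from 62 to 82 counts per KU55933 library and 129 to 149 per vehicle library. The groups were well apart and each was narrow. Psmg4 fell (log2 change -0.76 ± 0.15 SE, adjusted p = 0.00566), the largest change among the 50 genes, and passed in all 8 fits without 1 library (adjusted p up to 0.0238). Without KU55933 1 and 2 its log2 change was -0.66 (adjusted p = 0.0589). It also kept most of its change with the offset, -0.58 ± 0.13 SE, just short of the threshold (adjusted p = 0.0521), and it passed there without vehicle 1 (adjusted p = 0.0415) but in none of the other 7 such fits.

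Its partner Psmg3 had 6.73, 5.33, 8.04 and 8.63 CPM with KU55933, against 9.34, 9.69, 8.87 and 8.58 CPM with vehicle. The groups overlapped through KU55933 4, and the log2 change of -0.34 ± 0.15 SE did not pass (adjusted p = 0.108) and was -0.09 with the offset. Psmg1 and Psmg2 had log2 changes of -0.04 and -0.03 (adjusted p = 0.824 and 0.815), or -0.0002 and -0.15 with the offset.

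Among the activators and the inhibitor, which dock at the ends of the core, Psme1 passed. Psme1, a subunit of the interferon-inducible activator ring, had 23.4, 19.4, 19.3 and 18.05 CPM with KU55933, against 25.6, 27.9, 27.6 and 24.8 CPM with vehicle. The groups did not overlap, KU55933 1 being the closest to the vehicle libraries, and Psme1 fell (log2 change -0.40 ± 0.10 SE, adjusted p = 0.0154). The call held without KU55933 1 and 2 (log2 change -0.50, adjusted p = 0.0196) and was lost without vehicle 2 or vehicle 3 (adjusted p up to 0.0534) and with the offset (-0.20 ± 0.11 SE, adjusted p = 0.378).

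Psme2, the other subunit of the same ring, had 21.6, 16.8, 18.3 and 18.4 CPM with KU55933, against 17.1, 18.2, 18.5 and 17.6 CPM with vehicle. Its groups overlapped and its log2 change was 0.07 ± 0.09 SE (adjusted p = 0.586), or 0.15 with the offset. Its close copy Psme2b had under 1 CPM in every library, and reads shared between such copies can be assigned to either. Psmf1, an inhibitor of the core, had 27.4, 26.2, 25.8 and 27.2 CPM with KU55933, against 27.9, 31.2, 30.2 and 31.2 CPM with vehicle. The groups were apart by a narrow margin; the log2 change was -0.17 ± 0.07 SE (adjusted p = 0.104), and -0.20 ± 0.06 SE with the offset (adjusted p = 0.166). Psme3, an activator of nuclear proteasomes, and Psme4, an activator linked to chromatin and DNA repair, had log2 changes of 0.01 and 0.08 (adjusted p = 0.924 and 0.558), whose signs turned with the offset, to -0.04 and -0.12.

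Psmc3ip, a meiotic recombination factor, and Psme3ip1, which binds the product of Psme3, did not pass (log2 change -0.15 and 0.02, adjusted p = 0.580 and 0.875, or -0.14 and 0.05 with the offset). Counting all 50 tested genes, the groups did not overlap in 11 that were higher and 7 that were lower with KU55933, where 10.7% and 15.9% of all genes were apart in these directions.

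**Figure D5:**
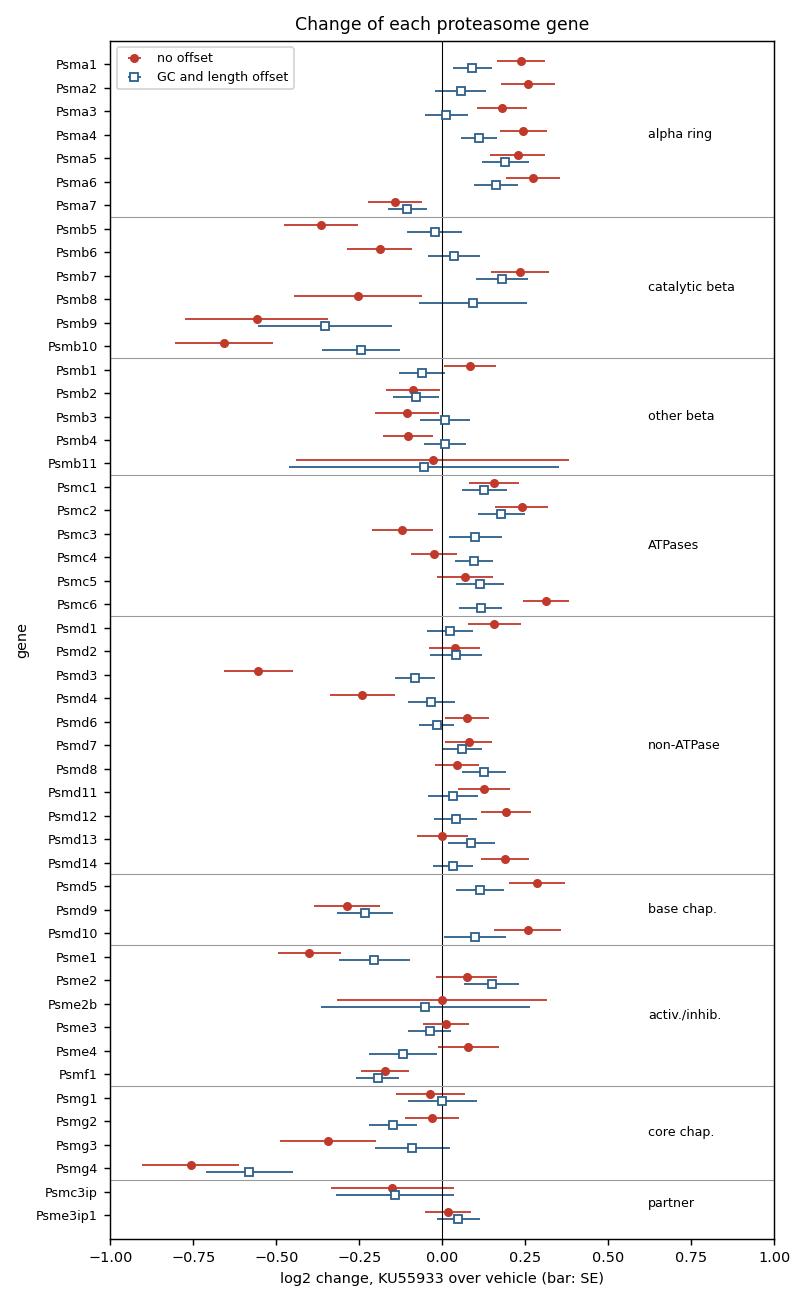
Log2 change of KU55933 over vehicle for the 50 tested proteasome genes, as measured and with the GC and length offset (x axis, log2 units; bars are SE). The changes of all 11 genes past the test are smaller with the offset, where Psmg4 lies at -0.58, and Psmb7, Psmc2 and Psmf1 move little.

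Transcripts were tested one by one as well. Of 252 transcripts of these genes, 174 were tested, of which 1 was higher and 2 were lower, where 1.06% and 5.70% of all 45343 transcripts were. The lower ones were the main coding transcripts of Psmd3, which averaged 60.4 ± 7.79 CPM with KU55933 and 93.2 ± 5.01 CPM with vehicle (log2 change -0.63 ± 0.10 SE, adjusted p = 0.0112), and of Psme1, which averaged 13.9 ± 2.40 CPM with KU55933 and 21.0 ± 1.61 CPM with vehicle (-0.59 ± 0.14 SE, adjusted p = 0.0436). The higher one was a transcript of the lid gene Psmd13 annotated as a target of nonsense-mediated decay, a pathway that degrades messages with early stop codons. It had 18.3, 13.99, 13.2 and 13.1 CPM with KU55933, against 9.15, 9.15, 10.4 and 10.22 CPM with vehicle. The groups were apart (log2 change 0.59 ± 0.14 SE, adjusted p = 0.0440), while Psmd13 as a whole averaged 67.8 CPM in each group. With a transcript-level offset its log2 change was 0.71 (adjusted p = 0.140), and no transcript of these genes passed, where 2.06% of all transcripts did.

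Transcripts annotated for nonsense-mediated decay took up 1.55%, 1.82%, 1.81% and 1.64% of all proteasome gene counts in KU55933 libraries, against 1.28%, 1.37%, 1.39% and 1.498% in vehicle libraries. The groups did not overlap. The share sums 18 transcripts, the called Psmd13 one among them. Over all genes this share was 1.99 ± 0.0900% with KU55933 and 1.86 ± 0.0507% with vehicle. There the groups overlapped, the lowest KU55933 library having 1.86% and the highest vehicle library 1.90%. Retained-intron transcripts took up 4.05 ± 0.798% of proteasome gene counts with KU55933 and 4.12 ± 0.265% with vehicle.

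Genes that work with the proteasome were read from lists in the same fit, and with the offset none of them passed. As measured, 6.92% of all genes tested were higher and 14.6% lower. Of 10 tested partner proteins of the complex, 2 were higher and 1 was lower, with a median log2 change of 0.21: Akirin2, which brings proteasomes into the nucleus (0.33, adjusted p = 0.0263), and Pomp, the maturation factor of the core (0.26, adjusted p = 0.0433), were higher, and Adrm1, a ubiquitin receptor of the cap (-0.70, adjusted p = 0.00160), was lower. Of 10 regulators of proteasome gene expression, Nfe2l2, a stress-response transcription factor, was higher (0.37, adjusted p = 0.0494), and Syvn1, a ubiquitin ligase of the endoplasmic reticulum (-0.36, adjusted p = 0.00650), and Mafk, a small Maf factor (-0.49, adjusted p = 0.0237), were lower, with a list median of 0.01. Of 10 ubiquitin shuttle and p97 genes only Ufd1, a p97 cofactor, was higher (0.22, adjusted p = 0.0402), and of 6 ubiquitin and E1 genes only Uba6, an activating enzyme, was higher (0.59, adjusted p = 0.0154); none was lower in either list, and the medians were 0.02 and -0.02. With the offset, Adrm1 had -0.03 and the sign of Syvn1 turned, to 0.05, while Akirin2 had 0.24, Pomp 0.24, Nfe2l2 0.24, Mafk -0.26, Ufd1 0.11 and Uba6 0.38.

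Of 27 E2 conjugating enzymes, 3 were higher and 5 were lower, with a median of 0.09; those with the smallest p-values were Ube2o (-0.42), Cdc34 (-0.54), Ube2w (0.33) and Ube2v1 (-0.31), with adjusted p-values of 0.00476 to 0.0236. With the offset the signs of Ube2o and Cdc34 turned, to 0.03 and 0.17, and Ube2w and Ube2v1 had 0.13 and -0.09. Of 18 genes of antigen presentation and interferon response, 4 were lower, beside 14.6% of all genes, and none was higher, with a median of 0.02. These were Tap2, which carries peptides into the endoplasmic reticulum (-0.84, adjusted p = 0.00126), the class I genes H2-K1 (-0.55, adjusted p = 0.00226) and H2-D1 (-0.46, adjusted p = 0.00576), and Tapbp, which loads the peptides (-0.44, adjusted p = 0.0236). With the offset the log2 changes were -0.35 for Tap2, -0.32 for H2-K1, -0.19 for H2-D1 and -0.07 for Tapbp. These 4 genes had GC contents of 54.9% to 58.3%. Positive changes were seen in 9 of the 18, none past the test. The largest were Ifit1 (0.90, adjusted p = 0.0581) and Ifit3 (0.65, adjusted p = 0.0596), or 0.73 and 0.56 with the offset.

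A promoter in RefSeq (GRCm38.p6) was matched for 43 of the 51 genes; Psma8, Psmb1, Psmb2, Psmb7, Psmc3, Psmd3, Psmd7 and Psmg2 had no entry. Proteasome genes are known targets of Nfe2l1, which with small Maf factors binds elements of the forms TGACNNNGC and TGAGNNNGC, so these were searched on both strands in the 250 bases before the start. TGACNNNGC was found in 5 of the 43 genes (11.6%, against 13.8% of the 11703 tested genes with a promoter) and TGAGNNNGC in 10 (23.3%, against 18.7%), and either in 13 (30.2%, against 29.6%). CCGGAAG, read by ETS factors, was found in 13 of 43 (30.2%, against 13.9%), and CCAAT, read by NF-Y, in 16 (37.2%, against 40.2%). The median GC content of the members' promoters was 57.6%, against 52.4% over all promoters in RefSeq. Its part in these shares was not tested. Of the 43 genes, 4 had more than 1 promoter, and a gene was counted if any of its promoters held the element. The windows below, of 60 bases each, show such an element in 2 genes that were lower and 2 that were higher with KU55933, with the element in capitals: Psmb5 (chr14:54618009-54618068, minus strand), Psmg4 (chr13:34162904-34162963, plus strand, element on the opposite strand), Psmc6 (chr14:45329574-45329633, plus strand, element on the opposite strand) and Psma4 (chr9:54950706-54950765, plus strand).
Psmb5: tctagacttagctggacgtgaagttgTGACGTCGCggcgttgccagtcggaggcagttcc
Psmg4: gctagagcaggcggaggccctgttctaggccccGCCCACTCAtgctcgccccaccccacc
Psmc6: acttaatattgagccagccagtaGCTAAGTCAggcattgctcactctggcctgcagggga
Psma4: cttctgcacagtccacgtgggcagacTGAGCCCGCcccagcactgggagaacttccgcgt
The Psmc6 window also holds a TGAGNNNGC match that does not overlap the one in capitals. A match is a sequence description only, and genes that hold one were found among both the higher and the lower genes.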

How the data were processed

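The authors deposited a table of estimated counts (expected counts), whole numbers for each transcript; per the submitters' processing notes Salmon 1.4.0, FastQC 0.11.9, DESeq2 1.32.0 and build GRCm39 were used. Libraries were made from poly(A) RNA with a stranded kit, per the labels' protocols, which name hippocampus as the tissue but give input amounts for other brain regions. The sources used here do not state rounding, strand handling or filters.

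The 74764 transcripts were summed to 19558 genes, filtered with filterByExpr and scaled by TMM, and the groups were compared with the quasi-likelihood F test of edgeR (two-sided, version 4.0.16 under R 4.3.3, limma 3.58.1), p-values being adjusted by Benjamini-Hochberg. CPM of single genes and transcripts uses TMM-scaled library sizes, while the summed marker levels use library totals without this scaling. TPM, GC content and length used GENCODE M21 transcripts (GRCm38), which matched 99.7% of the transcripts and 99.8% of the counts; no coordinates of the authors' build were used. The offset was each library's spline of counts on gene GC content (6 df) and log2 length (5 df); genes without a reference length left 15470 tested. It takes out any true change that follows GC content or length too. No pair of libraries of the same group agreed within sampling noise. P-values set the difference between the groups against the spread of these 8 libraries within their groups. Counts limit precision for genes under about 100 counts.

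Named with values in every library were the 6 catalytic genes, the 2 genes with the smallest p per role, and the 3 largest rises and falls among those called; from each pathway list up to 4 called genes were named. Psmg3 and Psme2 were added after their values were seen, as partners of called genes, and so were the 3 called transcripts. The members and all lists were chosen with earlier results of these data known. Paaf1 is a listed partner and was not analysed here.

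Alternatives were RLE and upper-quartile scaling, other filters, DESeq2 1.42.0, limma-voom, a replicate block, GC offset alone, an adjusted p of 0.1, each library left out, and KU55933 1 and 2 left out; the last with the offset, and the transcript offset, were added after seeing the data. Promoters came from RefSeq.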

Additional observations from a re-analysis of the deposited data

Results flagged for a closer look

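Over the 50 tested genes, 100 sets of 4 libraries (1 gene in 1 group) were searched for a library far from the other 3, and 4 were found, all in vehicle libraries; chance alone marks about 1 in 20 such sets. Psma7, an alpha ring gene, had 60.1 CPM in vehicle 1, below the 66.9 to 67.9 CPM of the other vehicle libraries. The immunoproteasome gene Psmb9 had 0.989 CPM in vehicle 2, below the 1.16 to 1.19 CPM of the others. The ATPase gene Psmc4 had 78.4 CPM in vehicle 2, above the 71.7 to 72.8 CPM of the others, and the ubiquitin receptor gene Psmd4 had 84.2 CPM there, above the 75.2 to 76.2 CPM of the others. None of these genes passed the test between the groups.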

How the results depend on the processing

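Of the 50 genes, 6 were higher and 5 lower with all libraries. RLE and upper-quartile scaling, both other filters and limma-voom gave 4 to 7 higher and 5 lower. DESeq2 gave 10 higher and 6 lower (2 lower in the cap against 1). It added Psma5, Psmb7, Psmc2 and Psmd14 as higher (DESeq2 adjusted p 0.0190 to 0.0445) and Psmd9 as lower. An adjusted p of 0.1 gave 12 higher and 8 lower (3 lower in the core, 3 in the cap). The GC and length offset, alone or with the replicate block, and the GC offset alone gave 0 higher and 0 lower, also in the core and the cap. Without KU55933 1 and 2 the counts were 0 higher, 2 lower and 0 lower in the core, and with the offset as well all were 0. All genes called numbered 3338, and 309 with the offset, 822 with offset and block, 228 with the GC offset, 1090 without KU55933 1 and 2, 34 without these and with the offset, and 5085 at an adjusted p of 0.1. Leaving out 1 library gave 1 to 7 higher and 3 to 7 lower genes, 1 to 2 lower in the core, 1 to 3 in the cap, 1597 to 4348 among all genes, and 1 to 2 lower transcripts; with the offset it gave 0 higher and 0 to 1 lower, 0 in core and cap, and 78 to 746 among all genes. Lower transcripts numbered 2, and 3 at 1 CPM in 4 libraries, 0 with the block and 0 with the offset. The cause of these differences was not tested.

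With the offset 10 of the 50 genes turned sign, none of them past the test: Psmb1, Psmc3, Psmc4, Psmd6, Psme3 and Psme4, whose values stand in the report, and 4 more. Psmb3 had 0.0091 (0.0089 with the block, 0.0066 with GC alone, 0.018 without KU55933 1 and 2), Psmb4 0.0080 (0.0067 with the block), Psmb6 0.036 (0.039, 0.032 and 0.038 in the same order as Psmb3) and Psmb8 0.092 (0.093, 0.066 and 0.19). Psmb5, lower as measured, had 0.00030 with the offset without KU55933 1 and 2, and Psmd14 had -6.64e-05 with GC alone. Without 1 library, as measured or with the offset, the log2 change lay between -0.18 and 0.047 for Psmb3, -0.15 and 0.036 for Psmb4, -0.43 and 0.031 for Psmb5, -0.25 and 0.088 for Psmb6, -0.34 and 0.17 for Psmb8, and -0.0098 and 0.22 for Psmd14; each change of sign was with the offset.

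With the replicate number as a block, 8 genes were higher and 6 lower, Psmb7, Psmc2 and Psmd9 being added, the cap had 2 lower and 4444 genes (28.7%) passed in all. The labels do not say that equal numbers mark a shared litter or day. Same-numbered libraries deviated with correlations of 0.29, 0.08, 0.04 and 0.20, and differently numbered ones with correlations of -0.22 to 0.11. A limit of 0.1 in every same-numbered pair was not met. KU55933 2 correlated best with vehicle 4 (0.11) and KU55933 3 with vehicle 1 (0.07). Whether equal numbers pair the samples cannot be decided from these values.

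Few counts limit Psma8, Psmb9, Psmb11 and Psme2b. They also limit Psmb8 (55 to 89 counts per KU55933 library, 82 to 113 per vehicle library) and Psmc3ip (50 to 64 and 69 to 93). The same holds for Psmg4 in the KU55933 libraries, with 62 to 82 counts each.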
